A study of Mus musculus with 12 samples.

Results

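The tricarboxylic acid (TCA) cycle oxidises acetyl-CoA in the mitochondrial matrix and hands its electrons to the respiratory chain. Heart muscle cells, which contract without pause, are rich in mitochondria and carry high levels of the cycle's enzymes. Described here are 9 genes of the cycle, chosen by symbol: Cs, Idh3a, Idh2, Ogdh, Sucla2, Sdha, Sdhb, Fh1 and Mdh2. All 9 were found among the 18530 genes of the deposited table, and all 9 passed the filter that left 12798 genes for testing.

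Polyadenylated RNA was sequenced from isolated mouse heart muscle cells in 12 libraries, 3 for each of 4 groups. Every group carried the mdx mutation, which removes dystrophin, so there was no group with dystrophin. Mice of both genotypes, mdx and mdx:Utrn+/-, received either saline or PB1046, and Utrn+/- means a single working copy of the gene for utrophin, a relative of dystrophin. PB1046 is a long-acting form of vasoactive intestinal peptide, a hormone whose receptors signal through cyclic AMP. Mice were dosed on alternate days between 4 and 12 weeks of age, and hearts were taken at 14 weeks. The protocol names 0.75 and 1.5 mg/kg of PB1046 and the treated libraries are labelled as high dose, with no figure. The labels give neither sex nor the animal behind each library, so p-values measure the spread between these libraries, which may in part be technical.

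Libraries held 7234100 to 25458207 recovered reads, and no enzyme had fewer than 1921 reads in any of them. Levels are given as scaled TPM, that is, TPM (a level per length of transcript, in which each library has the same total) divided by a scaling factor of 0.842 to 1.32 for each library. Under saline the deposited TPM of Utrn averaged 9.82 ± 1.29 for mdx against 4.97 ± 1.51 for mdx:Utrn+/-, and under PB1046 13.8 ± 6.71 against 6.84 ± 2.82 (SD, n = 3 each). All 11 cardiomyocyte markers averaged at least 1 scaled TPM, and their summed level was 71686 to 150272 scaled TPM over the libraries. Markers of other cells were present too: the 10 endothelial markers summed to 238 to 1143 scaled TPM, and none of them was at 0 in all libraries. In bulk RNA, fewer cardiomyocytes and less of an enzyme's RNA in each cardiomyocyte cannot be told apart.

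The series names cAMP-PKA-CREB and NF-kB signalling as its subject, so the stretch before the start of each enzyme gene was searched for the sites these factors are known to bind. RefSeq promoters (GRCm38.p6) matched 8 of the 9 symbols, all but Idh3a, and 250 bases before the start were read on both strands. The full CRE, the cyclic AMP response element TGACGTCA, occurred in Ogdh and Mdh2, 2 of 8 enzymes, against 1.55% of 32851 promoters. The kappa B motif occurred in Sdhb alone, against 3.90% of all promoters, and the last 2 of its bases are shared with a GC box. The GC box GGGCGG, a motif of many housekeeping promoters, occurred in Cs, Idh2, Sucla2, Sdhb, Fh1 and Mdh2, against 32.7% of all promoters. Neither the half-site AAGGTCA of estrogen-related receptors (4.08% of all promoters) nor the NRF1 motif (0.998%) was in any of the 8 windows. The promoters of Ogdh, Mdh2 and Sdhb are shown because they hold the motifs of the pathways the series names. Each is printed 5′ to 3′ on the strand of its gene, here the plus strand, with the CRE (Ogdh, Mdh2) or the kappa B match (Sdhb) in capitals.
Ogdh, chr11:6291347-6291596: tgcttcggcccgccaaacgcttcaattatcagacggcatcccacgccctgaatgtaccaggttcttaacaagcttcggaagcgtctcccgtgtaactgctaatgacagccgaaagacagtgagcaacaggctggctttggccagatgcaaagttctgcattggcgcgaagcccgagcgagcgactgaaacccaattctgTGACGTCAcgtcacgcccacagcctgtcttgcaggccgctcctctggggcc
Mdh2, chr5:135778399-135778648: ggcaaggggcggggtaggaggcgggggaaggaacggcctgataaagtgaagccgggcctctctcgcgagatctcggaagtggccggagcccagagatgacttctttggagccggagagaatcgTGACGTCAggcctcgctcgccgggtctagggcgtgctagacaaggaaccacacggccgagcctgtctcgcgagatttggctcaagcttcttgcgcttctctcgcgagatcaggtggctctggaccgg
Sdhb, chr4:140961021-140961270: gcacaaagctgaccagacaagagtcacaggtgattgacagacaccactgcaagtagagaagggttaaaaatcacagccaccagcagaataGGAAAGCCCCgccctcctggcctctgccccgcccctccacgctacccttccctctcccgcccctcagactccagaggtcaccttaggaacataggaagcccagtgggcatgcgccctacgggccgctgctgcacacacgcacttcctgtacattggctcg
The CRE lies 51 to 44 bases before the start in Ogdh and 127 to 120 bases before it in Mdh2, and the kappa B match lies 160 to 151 bases before the start of Sdhb. In the GENCODE annotation Mdh2 starts earlier, at 135778480, so by that start its CRE lies inside the gene. These are matches of letters, and binding was not measured.

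The enzymes follow in the order of the cycle, with mm10 coordinates counted from 1. Cs (chr10:128337832-128362479, plus strand) encodes citrate synthase, which joins acetyl-CoA to oxaloacetate. Its level was 949, 529 and 465 scaled TPM in mdx saline and 788, 625 and 483 in mdx PB1046. In mdx:Utrn+/- it was 668, 679 and 634 with saline and 701, 526 and 973 with PB1046. The 3 libraries of mdx:Utrn+/- saline lay close together, inside the range of each of the other groups. A retrocopy, Csl, has a row of its own in the table, and how reads shared with it were assigned is not given in the sources used here.

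Idh3a (chr9:54586511-54604662, plus strand) encodes the catalytic subunit of the NAD-dependent isocitrate dehydrogenase. It was the lowest of the 9 on average, at 336 ± 121 scaled TPM over the 12 libraries (SD). Its levels were 561, 243 and 248 scaled TPM in mdx saline, 387, 324 and 205 in mdx PB1046, 249, 322 and 374 in mdx:Utrn+/- saline, and 306, 242 and 573 in mdx:Utrn+/- PB1046. One library of mdx saline and one of mdx:Utrn+/- PB1046 stood high, and all groups overlapped. Idh2 (chr7:80094847-80115350, minus strand) encodes the NADP-dependent mitochondrial isocitrate dehydrogenase, which supplies NADPH in the matrix, and was the highest of the 9 at 2417 ± 576 scaled TPM. It measured 2375, 2059 and 1849.8 scaled TPM in mdx saline and 2893, 1767 and 1585 in mdx PB1046. In mdx:Utrn+/- it measured 3054, 3093 and 3076 scaled TPM with saline and 2749, 1808 and 2691 with PB1046. In scaled TPM the 3 mdx:Utrn+/- saline libraries were the highest of the 12. In deposited TPM they were 2603, 2710 and 2757, and mdx PB1046 replicate 1, at 2745, lay among them.

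Ogdh (chr11:6291597-6359094, plus strand) encodes the E1 subunit of the 2-oxoglutarate dehydrogenase complex, a controlled step of the cycle. It was 411, 288 and 241 scaled TPM in mdx saline and 459, 347 and 272 in mdx PB1046. With Utrn+/- it was 449, 451 and 429 scaled TPM under saline and 379, 295 and 491 under PB1046. In scaled TPM all 3 mdx:Utrn+/- saline libraries lay above all 3 mdx saline libraries. In deposited TPM they overlapped, at 382 to 395 against 246 to 400. Sucla2 (chr14:73552786-73596142, plus strand) encodes the ATP-forming beta subunit of succinyl-CoA ligase. It ranged from 355 scaled TPM in mdx PB1046 to 831 in mdx:Utrn+/- PB1046, with a median of 555, and no pair of groups was separate.

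Sdha (chr13:74322255-74350240, minus strand) and Sdhb (chr4:140961271-140979192, plus strand) encode the flavoprotein and the iron-sulfur subunit of succinate dehydrogenase, which is complex II of the respiratory chain. Sdha measured 883, 497 and 467 scaled TPM in mdx saline, 842, 558 and 473 in mdx PB1046, 680.3, 787 and 685 in mdx:Utrn+/- saline, and 675, 473 and 936 in mdx:Utrn+/- PB1046. Sdhb was higher, at 1955, 1548 and 1684 scaled TPM in mdx saline and 1649, 1175 and 879.7 in mdx PB1046. In mdx:Utrn+/- it was 1438, 1447 and 2135 scaled TPM with saline and 1753, 1367 and 2245 with PB1046. The 2 lowest Sdhb values of the 12 were both from mdx PB1046, and the remaining mdx PB1046 library lay within the mdx saline range. Reads on the Gm16125 pseudogene, which lies within Sdha on the other strand, cannot be separated from those of Sdha unless the counting used strand, which is not stated.

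Fh1 (chr1:175601378-175625635, minus strand) encodes fumarase, and its 5′ side overlaps Kmo on the other strand. It ranged from 197 scaled TPM in mdx PB1046 to 538 in mdx saline, with a median of 329. Mdh2 (chr5:135778649-135790386, plus strand) encodes mitochondrial malate dehydrogenase, which closes the cycle. It was 2236, 1791 and 1859.9 scaled TPM in mdx saline and 2054, 1329.7 and 1125 in mdx PB1046. In mdx:Utrn+/- it was 1914, 1753 and 2200.0 scaled TPM with saline and 2052, 1483 and 2675 with PB1046. As with Sdhb, the 2 lowest values came from mdx PB1046.

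**Figure D1:**
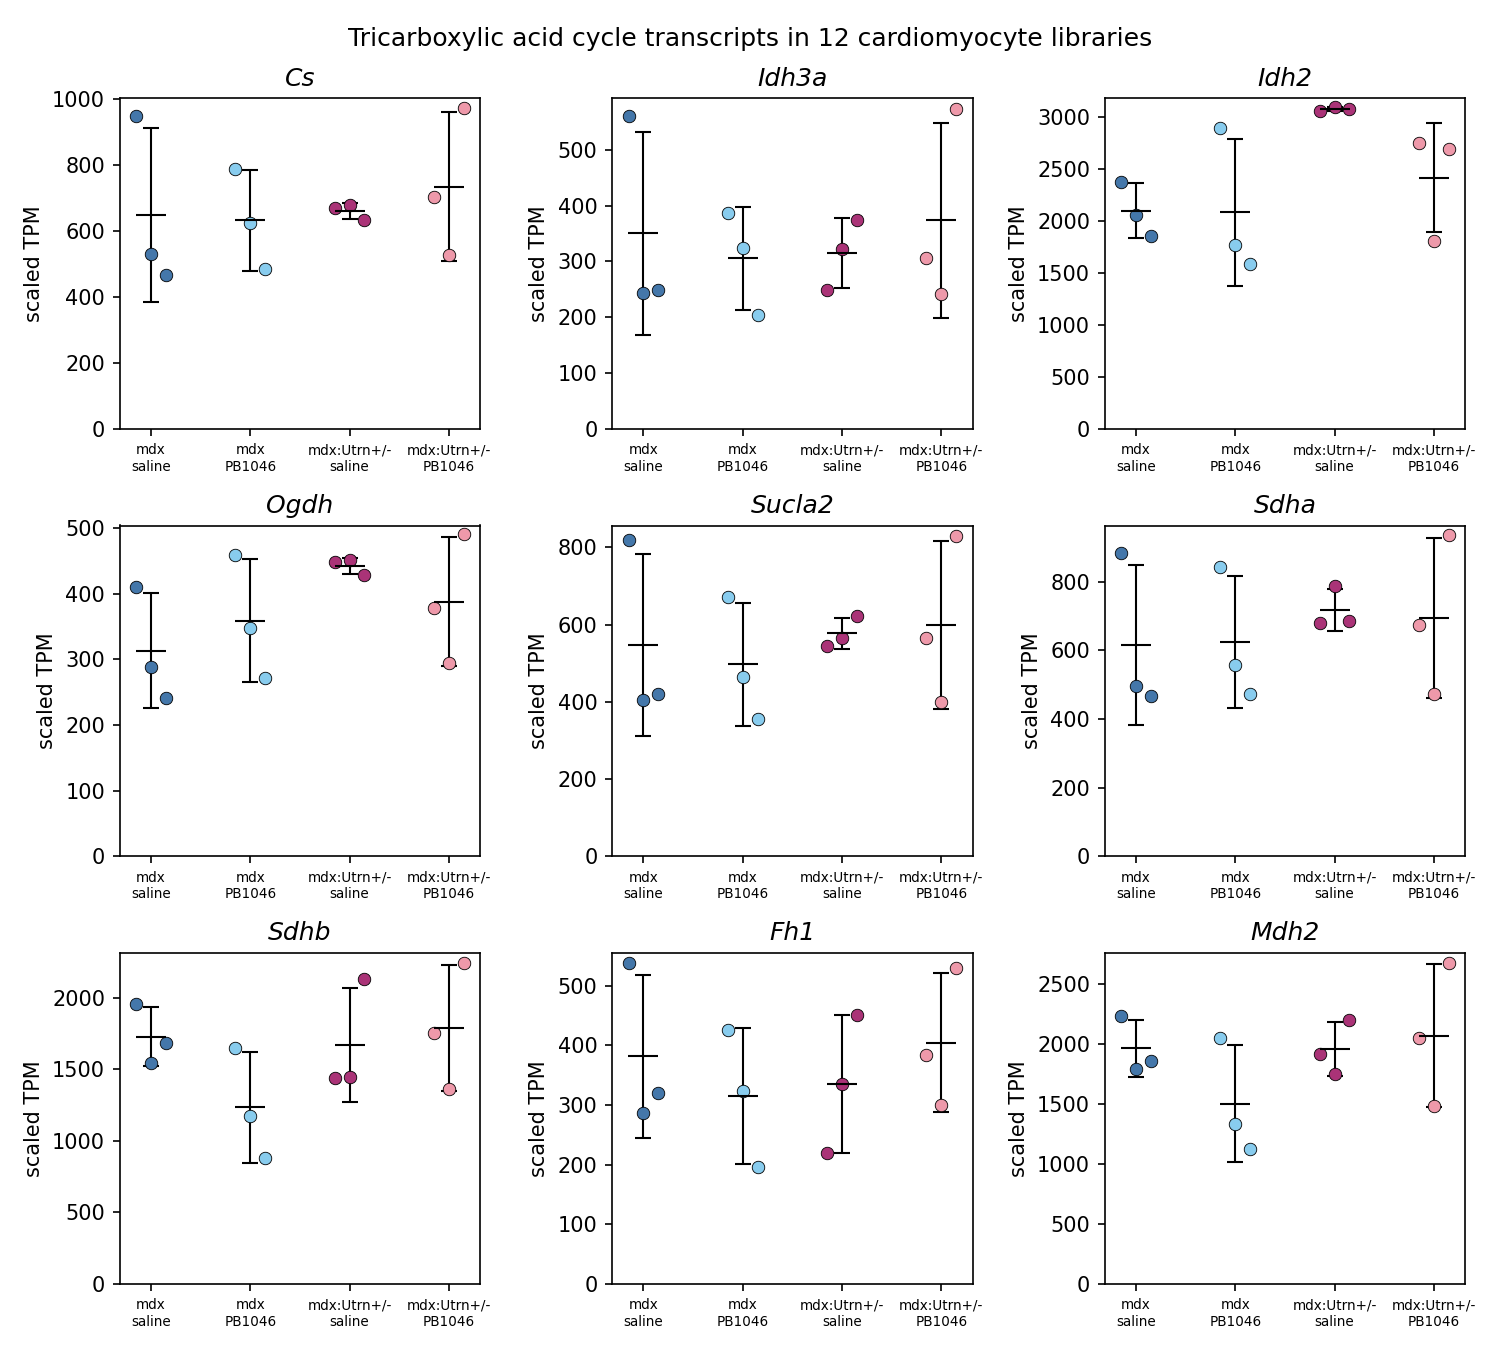
Level in scaled TPM (y axis, from 0) of each enzyme in the 4 groups, with 1 point per library in replicate order and a bar for the mean ± SD (n = 3). Idh2 in mdx:Utrn+/- saline stands at 3054 to 3093, above all other libraries, and the other groups of most enzymes spread widely and overlap.

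By level per length, the order of the means over 12 libraries was Idh2, Mdh2, Sdhb, Cs, Sdha, Sucla2, Ogdh, Fh1 and Idh3a. Sdhb exceeded Cs in 12 of 12 libraries, by 1.82 to 3.62 times, so 3 abundant transcripts stood apart from the other 6. Within the lower 6, Cs exceeded Sdha in 7 of 12 libraries, Ogdh exceeded Fh1 in 6 of 12, and Fh1 exceeded Idh3a in 7 of 12, so these neighbours did not differ beyond their spread. Even Idh3a stood at the 96.9th percentile of the genes tested. From lowest to highest library the enzymes varied 1.95-fold (Idh2) to 2.80-fold (Idh3a). The SD over libraries of the log2 level had a median of 0.37 for the 9 enzymes and 0.36 for the 1121 genes with a mean of at least 100 scaled TPM.

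Most of this spread lay within groups. Group membership accounted for 3.76% of the variance of the log2 level of Idh3a, 6.29% of Cs and 7.88% of Sucla2, and for more in Idh2 (49.0%) and Sdhb (39.2%). The median was 12.5% over the 9 enzymes and 22.9% over all genes tested. The 3 mdx:Utrn+/- saline libraries lay close together. The SD was 0.642% of the mean for Idh2, 2.74% for Ogdh and 3.54% for Cs there, and that group had the smallest such spread for 7 of the 9 enzymes. It had the smallest for 26.5% of all genes tested, and its median spread over all genes, 23.7%, was like that of the other groups (21.5% to 24.1%). For Fh1 in the same group the SD was 34.5% of the mean.

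In mdx mice PB1046 was compared with saline to ask how the drug changes cardiomyocyte transcripts. No enzyme passed the threshold (limma, Benjamini-Hochberg adjusted p under 0.05), where 0% of the 12798 genes tested were called and 407 had an unadjusted p under 0.05. Of the 9 enzymes 3 were higher and 6 lower, with a median log2 change of -0.11 against -0.02 over all genes, and without the scaling factors 6 were higher and 3 lower, with a median of 0.08 against 0.14. Sdhb had the largest change, -0.53 (95% interval -1.13 to 0.08, limma adjusted p = 0.999), then Mdh2 with -0.43 (-1.02 to 0.17) and Fh1 with -0.29 (-1.08 to 0.51). Ogdh stood at 0.20 (-0.38 to 0.78), and Cs at 0.01 (-0.66 to 0.67). Saline and PB1046 libraries overlapped for 9 of 9 enzymes, where 8.74% of the genes tested did not overlap.

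The 3 lowest values belonged to the 3 shortest transcripts of the 9, with 1073 (Sdhb), 1282 (Mdh2) and 1632 bases (Fh1), against 1702 to 6984 for the others. With each library's trends over gene length and abundance removed, the changes of these 3 were -0.25 to -0.15 and those of the other 6 were -0.04 to 0.29. Rn45s, the entry for the ribosomal RNA precursor, was 1039 to 10402 TPM in mdx saline and 11570.3 to 25861 TPM in mdx PB1046. With log2 Rn45s as a term in the fit the median change of the 9 enzymes was 0.12, so its sign turned. Without that term the median of the 9 was -0.11. Leaving out 1 library moved this value from -0.33 (without mdx PB1046 replicate 1) to 0.22 (without mdx saline replicate 1).

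Markers of several cell types moved in the same comparison. Of the 11 cardiomyocyte markers 10 were lower with PB1046 in mdx, by a median of -0.30, with sums of 71686 to 136064 against 114058 to 125312 scaled TPM in saline. Fibroblast markers were higher in 7 of 8 (median 0.53), with sums of 412 to 720.2 against 218 to 786 scaled TPM, and macrophage markers in 9 of 9 (median 0.36), with 107 to 328 against 68.5 to 326. Markers of smooth muscle and pericytes were higher in 7 of 8 (median 0.35), with sums of 249 to 310.1 against 158 to 248 scaled TPM, and erythroid markers in 5 of 5 (median 1.89), with 59.2 to 831 against 18.7 to 93.5. The part of these cell types in the enzymes' values was not tested.

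In mdx:Utrn+/- mice PB1046 against saline gave 5 higher and 4 lower enzymes, with a median log2 change of 0.05 against 0.02 over all genes. None was called, as was 0% of all genes (246 genes at an unadjusted p under 0.05). Idh2 had the largest change, -0.37 (95% interval -0.93 to 0.19, limma adjusted p = 1.00), and it was the 1 enzyme of 9 whose PB1046 libraries did not overlap the saline libraries, all lying below. Over all genes 5.76% did not overlap. Fh1 was at 0.29 (-0.50 to 1.09) and Ogdh at -0.22 (-0.80 to 0.36). The endothelial markers moved beside these: 10 of 10 were higher with PB1046, by a median of 0.65, and summed to 298 to 428 scaled TPM with saline and 368 to 997 with PB1046. Macrophage markers were lower in 9 of 9 (median -0.59), fibroblast markers in 8 of 8 (median -0.26) and atrial markers in 4 of 4 (median -0.82). Erythroid markers were higher in 5 of 5 (median 0.73). The part of these other cell types in the enzymes' values was not tested. With the endothelial score (the mean centred log2 level of its markers) as a term, Idh2 stood at -0.07 and the median of the 9 at 0.32. Without that term the median of the 9 was 0.05. Leaving out 1 library moved this value from -0.19 (without mdx:Utrn+/- PB1046 replicate 3) to 0.27 (without mdx:Utrn+/- PB1046 replicate 2).

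The drug response differed between the genotypes by 0.10 in the median of the 9 enzymes on the log2 scale, against 0.04 over all genes. That median was -0.14 with log2 Rn45s as a term and 0.48 with the endothelial score as a term, and it ran from -0.21 (without mdx saline replicate 1) to 0.36 (without mdx:Utrn+/- PB1046 replicate 2) when 1 library was left out. This difference, the response in mdx:Utrn+/- minus that in mdx, was 0.62 for Sdhb (95% interval -0.24 to 1.47), 0.58 for Fh1 (-0.54 to 1.70), 0.47 for Mdh2 (-0.37 to 1.31) and -0.42 for Ogdh (-1.24 to 0.40). No enzyme was called (limma adjusted p = 1.00 for each), nor were any of the other genes (0%, with 316 at an unadjusted p under 0.05). Averaged over genotypes, the PB1046 change of the 9 had a median of -0.03 and ran from -0.22 (Sdhb) to 0.06 (Cs), with 0% of all genes called and 319 at an unadjusted p under 0.05. The 95% intervals of that average ran from -0.65 at the lowest to 0.63 at the highest. For the average alone, this leaves out a change of 2-fold in either direction for each of the 9. Within a genotype the intervals were wider and did reach 2-fold, to -1.13 for Sdhb in mdx and 1.09 for Fh1 in mdx:Utrn+/-.

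Under saline, mdx:Utrn+/- was compared with mdx to ask what the loss of a utrophin copy adds. Idh2 was higher by 0.56 on the log2 scale (95% interval 0.00 to 1.12), at 3075 ± 19.7 against 2095 ± 264 scaled TPM (SD, n = 3 each). Its unadjusted limma p of 0.049 became 0.867 after adjustment over all genes. Ogdh was at 0.53 (-0.05 to 1.11, limma adjusted p = 0.867), with 443 ± 12.2 against 313 ± 87.6 scaled TPM. For these 2 of the 9 enzymes the groups did not overlap in scaled TPM, as for 9.49% of all genes tested. In deposited TPM the groups overlapped for Ogdh, at 382 to 395 against 246 to 400, and stayed separate for Idh2. Sdha was at 0.28 (-0.42 to 0.97), and Fh1 was the lowest at -0.19 (-0.98 to 0.61). The median of the 9 was 0.10 with 5 higher and 4 lower, against -0.02 over all genes (-0.12 against -0.20 without the scaling factors), and 0% of the genes were called (489 at an unadjusted p under 0.05).

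Endothelial markers moved the other way here. All 10 were lower in mdx:Utrn+/- saline, by a median of -0.85, and summed to 298 to 428 against 388 to 814 scaled TPM. With the endothelial score as a term the change of Idh2 was 0.23 and that of Ogdh 0.22, and the median of the 9 was -0.25. Without that term the median of the 9 was 0.10. Leaving out 1 library moved this value from -0.04 (without mdx saline replicate 3) to 0.41 (without mdx saline replicate 1). Of the 11 cardiomyocyte markers 7 were higher, by a median of 0.07, with sums of 135645 to 145663 against 114058 to 125312 scaled TPM. Macrophage markers were higher in 9 of 9, by a median of 0.35, summing to 96.7 to 423 against 68.5 to 326 scaled TPM. Erythroid markers were higher in 5 of 5 (median 1.23). Atrial markers were lower in 3 of 4 (median -0.88), but their overlapping sums were 1473 to 5984 against 516 to 4698 scaled TPM. The part of cardiomyocytes and of macrophage, erythroid and atrial cells in these changes was not tested.

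Under PB1046 all 9 enzymes were higher in mdx:Utrn+/- than in mdx, by a median of 0.24, where 54.1% of all genes were higher and the median over them was 0.03, but without the scaling factors 3 were higher and 6 lower, with a median of -0.02 against -0.20. None was called, and 0% of all genes were (226 at an unadjusted p under 0.05). Sdhb had the largest difference, 0.55 (95% interval -0.05 to 1.16, limma adjusted p = 0.999), from 1235 ± 388 in mdx to 1788 ± 440.4 scaled TPM in mdx:Utrn+/- (SD, n = 3 each). Leaving out 1 library turned the median to -0.02 (without mdx:Utrn+/- PB1046 replicate 3), and it was 0.04 without mdx PB1046 replicate 3 and 0.50 without mdx:Utrn+/- PB1046 replicate 2. With length and abundance trends removed it was 0.06, with 7 higher and 2 lower, and with log2 Rn45s as a term 0.09. Mdh2 was at 0.47 (-0.12 to 1.06), Fh1 at 0.39 (-0.40 to 1.19) and Ogdh at 0.11 (-0.47 to 0.69). Groups overlapped for 9 of 9 enzymes, where 5.74% of all genes did not overlap. Cardiomyocyte markers were likewise higher in 11 of 11, by a median of 0.33, with sums of 102531 to 150272 against 71686 to 136064 scaled TPM. Fibroblast markers were lower in 8 of 8 (median -0.74), with sums of 259 to 455 against 412 to 720.2 scaled TPM, and macrophage markers in 9 of 9 (median -0.53), with 98.3 to 159 against 107 to 328. Markers of smooth muscle and pericytes were lower in 7 of 8 (median -0.48), with sums of 198 to 230.0 against 249 to 310.1 scaled TPM. Atrial markers were lower in 3 of 4 (median -1.67), with sums of 608 to 2594 against 532 to 1334 scaled TPM. The part of these cell types in the differences was not tested. This comparison and the one of PB1046 with saline in mdx share the mdx PB1046 libraries.

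Averaged over treatments, all 9 were again higher in mdx:Utrn+/-, by a median of 0.21 against -0.01 over all genes, but 5 were higher and 4 lower with the endothelial score as a term (median 0.00) or with length and abundance trends removed (median 0.03), and 3 were higher and 6 lower without the scaling factors. Idh2 was at 0.40 (95% interval 0.01 to 0.80), with an unadjusted limma p of 0.047 and an adjusted p of 0.866, and Ogdh was at 0.32 (-0.09 to 0.73). Again 0% of all genes were called, with 434 at an unadjusted p under 0.05. Without the scaling factors the median over all genes was -0.21 and that of the 9 enzymes -0.03. With the endothelial term Idh2 stood at 0.23, and with the trends removed at 0.20. Cardiomyocyte markers were higher in 11 of 11 (median 0.24), endothelial markers lower in 10 of 10 (median -0.41) and fibroblast markers lower in 8 of 8 (median -0.28). Atrial markers were lower in 3 of 4 (median -1.27) and erythroid markers higher in 5 of 5 (median 0.67). Leaving out 1 library moved the median of the enzymes from 0.09 (without mdx:Utrn+/- PB1046 replicate 3) to 0.33 (without mdx:Utrn+/- PB1046 replicate 2).

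**Figure D2:**
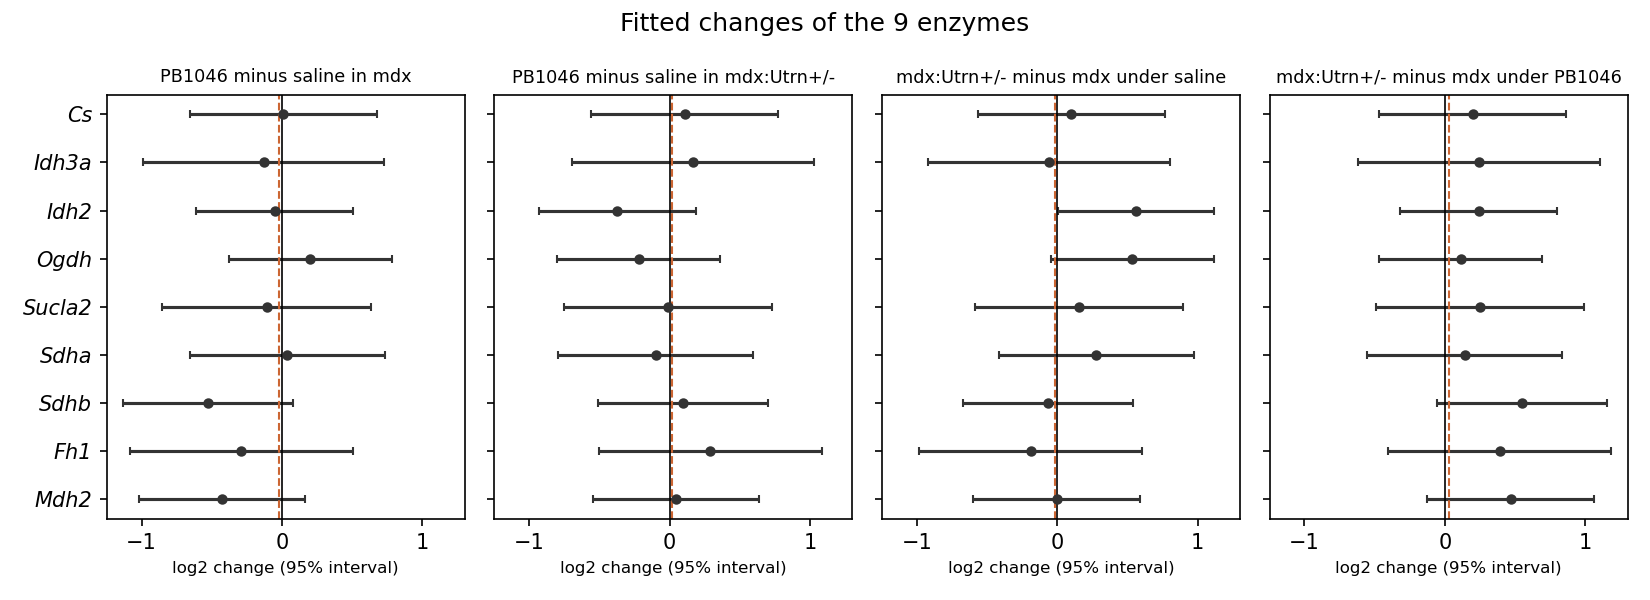
Fitted log2 change (x axis) of each enzyme with its 95% interval in the 4 group comparisons, where the dashed line is the median over all genes tested. Of the 36 intervals only that of Idh2 in mdx:Utrn+/- minus mdx under saline lies above 0, from 0.00 to 1.12, before adjustment over genes.

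In the authors' deposited table, which holds 6 pairwise group comparisons, the false discovery rates of the 9 enzymes lay between 0.732 and 1. The smallest p-value there was 0.0603, and no log2 fold change of an enzyme exceeded 0.59 in size. No gene of that table had a false discovery rate under 0.05 in any of the 6.

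Levels of the 9 enzymes varied together from library to library. A score, the mean of the 9 centred log2 levels, was 0.43, -0.26 and -0.29 in mdx saline, 0.27, -0.21 and -0.60 in mdx PB1046, -0.03, 0.10 and 0.25 in mdx:Utrn+/- saline, and 0.11, -0.33 and 0.55 in mdx:Utrn+/- PB1046. High and low libraries thus occurred in every group but mdx:Utrn+/- saline. The 5 libraries with the lowest enzyme score were the 5 with the highest endothelial score. In those 5 the endothelial score was 0.31 to 1.08, the enzyme score -0.60 to -0.21 and the cardiomyocyte score -0.72 to -0.06. In the other 7 the endothelial score was -0.93 to -0.03, the enzyme score -0.03 to 0.55 and the cardiomyocyte score 0.03 to 0.30. All the scores come from the same libraries and share their depth and scaling factors. The scaling factors were 1.02 to 1.32 in those 5 libraries and 0.842 to 0.972 in the other 7. In deposited TPM the enzyme levels of the 5 and the 7 overlapped for every enzyme but Idh2. Cs, for example, was 475 to 777 against 568 to 923. Idh2 stayed separate, at 1887 to 2198 against 2310 to 2757. The part of scaling in this split was not tested.

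**Figure D3:**
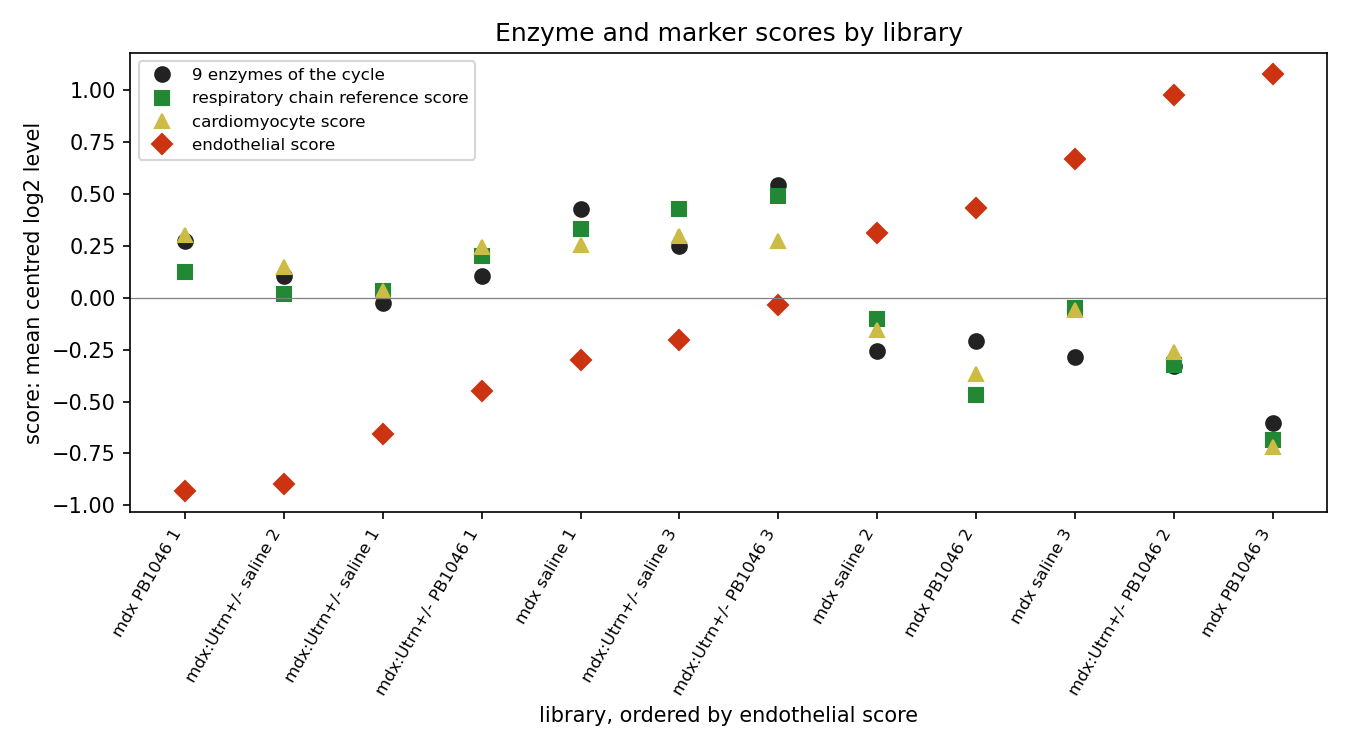
Score (mean centred log2 level, y axis) of the 9 enzymes, of 18 respiratory chain genes and of cardiomyocyte and endothelial markers in each of the 12 libraries, ordered along the x axis by endothelial score. The enzyme score is -0.03 to 0.55 in the 7 libraries at the left and -0.60 to -0.21 in the 5 at the right.

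Among the 36 pairs of enzymes, Pearson's r over the 12 libraries ran from 0.45 to 0.96 with a median of 0.76. By permutation (100000, two-sided, Benjamini-Hochberg over the 36), 32 pairs passed an adjusted p of 0.05 with Pearson's r and 26 with Spearman's rho. Sucla2 and Sdha had r = 0.96 (rho = 0.92), and Sdhb and Mdh2 also had r = 0.96 (rho = 0.92, permutation adjusted p = 9.0e-05 for r, from the smallest p that 100000 permutations can give, and 0.00048 for rho). Without the 2 libraries farthest from the median, the latter pair had r = 0.91. Idh2 and Fh1 had the weakest relation, r = 0.45 (permutation adjusted p = 0.144) and rho = 0.43 (0.170), and r = 0.20 without the 2 farthest libraries. With group means removed the 36 values of r ran from 0.67 to 0.98, so the pairs also moved together within groups. All genes of a library share its scaling factor and cell make-up, which the permutations do not take into account. No such count was made for pairs of other genes. Of 12789 other genes, 957 had r over 0.8 with the enzyme score.

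**Figure D4:**
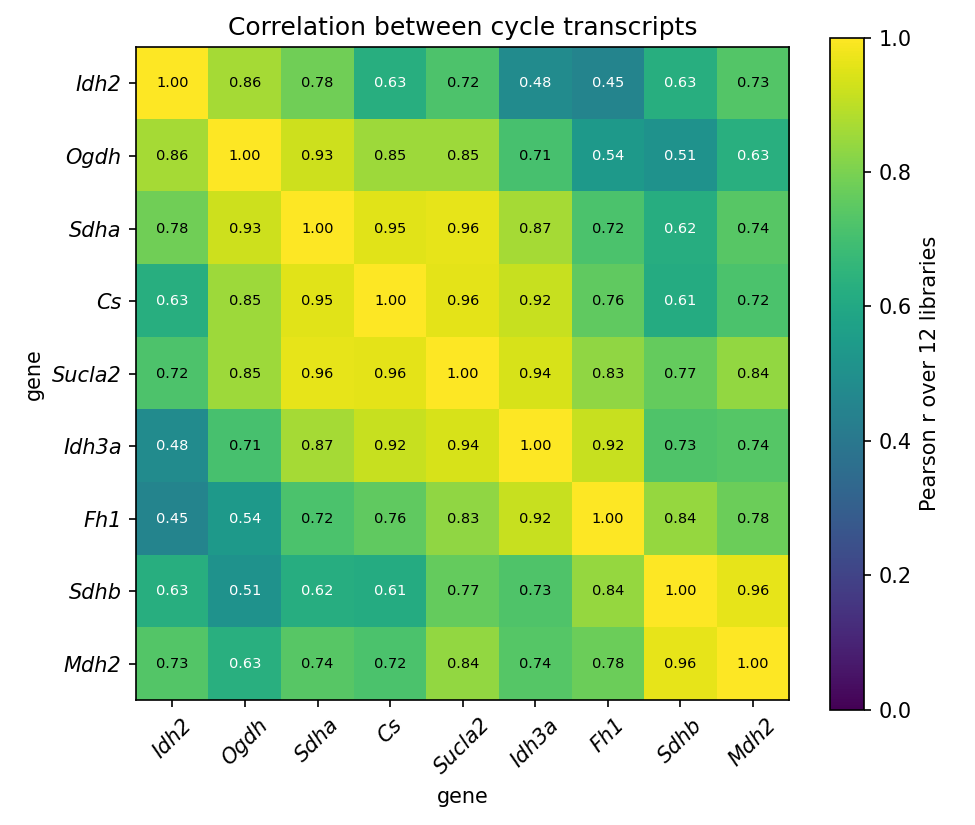
Pearson's r over 12 libraries between the log2 levels of each pair of enzymes, given as a colour from 0 to 1 and as a number, with genes on both axes. Sdhb and Mdh2 (0.96) form one close pair, and Cs, Sdha and Sucla2 form another close set (0.95 to 0.96), while Idh2 and Fh1 share the least (0.45).

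The subunits of succinate dehydrogenase were less closely tied than these. Sdha and Sdhb had r = 0.62 (permutation adjusted p = 0.0319) and rho = 0.58 (0.0621), and r = 0.73 without the 2 farthest libraries. Their ratio within a library is free of any scaling factor. Sdha over Sdhb was 0.452, 0.321 and 0.278 in mdx saline and 0.511, 0.475 and 0.538 in mdx PB1046, with the drug-treated libraries all above. In mdx:Utrn+/- it was 0.473, 0.544 and 0.321 with saline and 0.385, 0.346 and 0.417 with PB1046, and there the groups overlapped. Idh2 over Idh3a was 4.24, 8.48 and 7.46 in mdx saline, 7.47, 5.45 and 7.75 in mdx PB1046, 12.3, 9.61 and 8.23 in mdx:Utrn+/- saline, and 8.99, 7.46 and 4.70 in mdx:Utrn+/- PB1046. Both ratios were chosen after the values were seen, so neither was tested. How many ratios of other gene pairs separate mdx PB1046 from mdx saline was not counted. Of single genes, 8.74% did not overlap between these groups. Sdha, with 2859 bases, is longer than Sdhb, and the part of length in the first ratio was not tested.

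**Figure D5:**
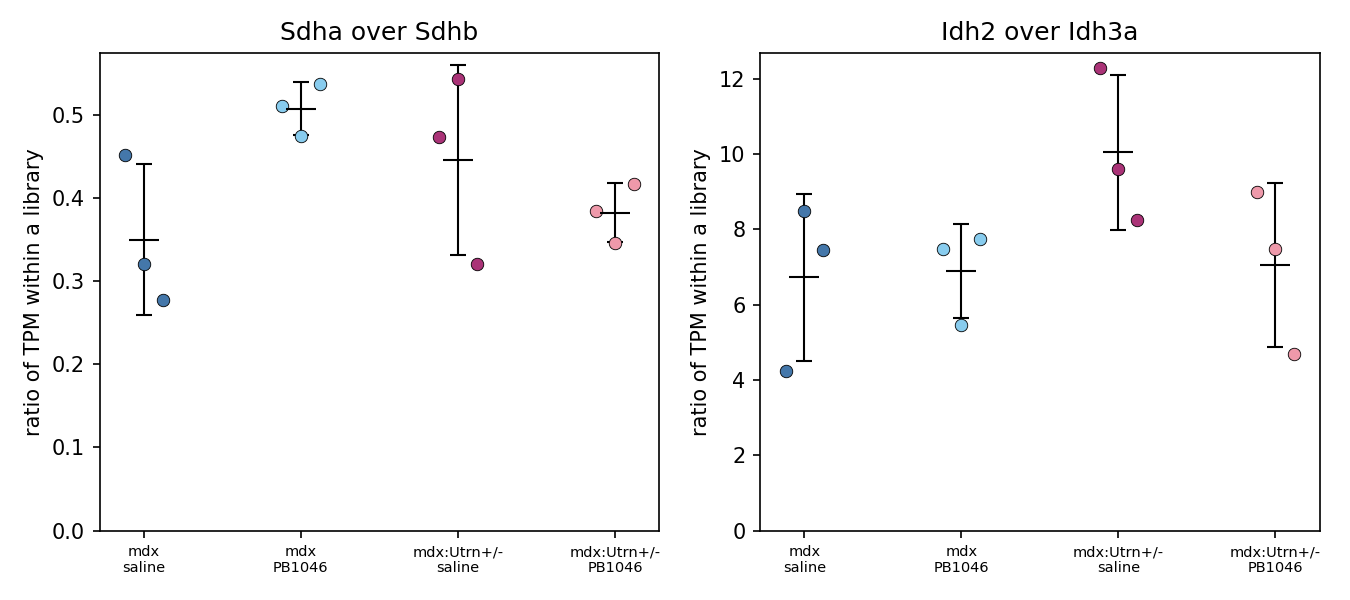
Ratio of TPM within a library (y axis, from 0) for Sdha over Sdhb and Idh2 over Idh3a, with 1 point per library and a bar for the mean ± SD (n = 3). Sdha over Sdhb is 0.475 to 0.538 in mdx PB1046 and 0.278 to 0.452 in mdx saline, a ratio chosen after the values were seen.

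A further 8 genes of the cycle (Idh3b, Idh3g, Dlst, Dld, Suclg1, Suclg2, Sdhc and Sdhd) were all tested and 0 passed the threshold in any of the 7 comparisons. For PB1046 in mdx 2 were higher and 6 lower (median -0.11), and for mdx:Utrn+/- against mdx under PB1046 all 8 were higher (median 0.24). Suclg1, the shared alpha subunit of succinyl-CoA ligase, was at -0.47 and 0.59 in these, and Idh3g, a regulatory subunit of isocitrate dehydrogenase, was at 0.41 for genotype averaged over treatments (limma adjusted p = 0.866). The 18 nuclear genes of the respiratory chain had a median of -0.44 for PB1046 in mdx (1 higher, 17 lower of 18) and 0.46 between genotypes under PB1046 (18 of 18 higher), and 0 of its genes were called. Cox5b, which belongs to cytochrome c oxidase, stood at -0.66 and 0.71 in these (limma adjusted p = 0.999 in each). Over all genes 46.5% and 54.1% were higher in the same comparisons, with medians of -0.02 and 0.03. Without the scaling factors these all-gene medians were 0.14 and -0.20, and the lists were read only with the scaling factors.

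Of the 7 metabolic and mitochondrial lists, pyruvate entry held the largest single change. Pdk4, the kinase that shuts pyruvate dehydrogenase in favour of fat oxidation, was at 1.90 for PB1046 in mdx and 1.47 averaged over genotypes (limma adjusted p = 0.999 and 1.00). Of the 14 genes of this list 7 were higher and 7 lower in mdx, and none was called in any comparison. Pdpr, a regulatory subunit of pyruvate dehydrogenase phosphatase, was at 1.01 in mdx. Among 19 genes of anaplerosis, shuttles and cytosolic counterparts, 17 were higher in mdx:Utrn+/- than in mdx under saline (median 0.14), including Bdh1, which handles ketone bodies, at 0.77. All 8 tested assembly factors and relatives were higher there as well (median 0.19), with Sdhaf1, an assembly factor of succinate dehydrogenase, at 0.26. None of these was called. Over all genes 48.1% were higher in mdx:Utrn+/- under saline, with a median of -0.02. Without the scaling factors that all-gene median was -0.20, and the lists were read only with the scaling factors.

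Of 11 regulators of mitochondrial biogenesis, 6 were higher and 5 lower for PB1046 in mdx (median 0.05), and 7 were higher for mdx:Utrn+/- over both treatments (median 0.07). Esrra, an estrogen-related receptor that drives oxidative genes, was at 0.33 for genotype averaged over treatments, and Pprc1, a coactivator of the PGC-1 family, at 0.55 for PB1046 in mdx, without either being called. The 12 genes of the mitochondrial content reference were higher in 12 of 12 for genotype averaged over treatments (median 0.20), beside the 0.21 of the cycle enzymes. Over all genes 48.4% were higher there (median -0.01, and -0.21 without the scaling factors).

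The genes whose levels most resembled the enzyme score over the 12 libraries, of 12789 others tested, were Pyurf (r = 0.98), Smpx (0.98), Coq2 (0.98), Dbi (0.97), Gsto1 (0.97), Slc25a3 (0.97), Mpv17 (0.97) and Afg3l2 (0.97). Smpx encodes a small protein of striated muscle, Coq2 an enzyme of ubiquinone synthesis, Slc25a3 the mitochondrial phosphate carrier and Afg3l2 a protease subunit of the mitochondrial inner membrane. The median r with the score was 0.92 for the 8 further cycle genes, 0.88 for the mitochondrial content reference, 0.82 for the respiratory chain and 0.76 for cardiomyocyte markers, against 0.10 over all genes tested. It was -0.68 for endothelial markers. These values describe likeness over libraries that share depth and cell make-up, and no p is attached to them.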

How the data were processed

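The authors deposited 1 table of 18530 genes on mm10 (per the submitters' processing notes). Its name says raw counts, but the columns the authors deposited are TPM, since their values have decimals and total 1000000 in each library. The table also holds 6 comparisons whose log2 fold change, p-value and false discovery rate the authors deposited. Those notes name edgeR, with no version, and aligner and read counter are not given in the sources used. Groups and replicate numbers come from the labels.

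TPM were divided by a scaling factor, a trimmed mean that drops 30% of the log ratios and 5% of the levels, and put on the scale log2(value + 1), which understates changes of low genes. A gene was tested if 3 or more libraries had 1 TPM or more, which left 12798. limma 3.58.1 (R 4.3.3) fitted group means to the 12 libraries together, leaving 8 residual degrees of freedom, and 7 contrasts were tested with Benjamini-Hochberg adjustment over all genes. The threshold was 0.05. TPM steps gave back whole reads for 18530 of 18530 genes (100% of values within 0.001 reads plus 3e-07 of the read number). These served for depth, gene length and limma-voom. The fit was tested on simulated data. Their spread between replicates was set in advance and not taken from these libraries, so this does not show which changes could be found here. Alternatives were another or no scaling, a pseudocount of 0.1, no filter, a replicate block, limma-voom, terms for Rn45s, endothelial score or library number, removal of length and abundance trends (lowess span 0.3), and leaving out each library. No 2 libraries held the same values.

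The enzymes, the gene lists and the rule for named genes were chosen with earlier results of these data known. The rule names the 9 enzymes and, for each list and contrast, up to 4 genes with the smallest unadjusted p where none is called, of which those in the text were picked after their values were seen. It also names the 8 genes with the highest r with the enzyme score. Sdhaf3, Sdhaf4 and the macrophage marker Adgre1 have no row in the table as used here. One gene of a list is not reported here.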

Additional observations from a re-analysis of the deposited data

How the results depend on the processing

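No enzyme passed the threshold under any alternative; the lowest limma adjusted p over all 63 values of an enzyme and a comparison and their alternatives was 0.391. Over the 7 comparisons 0 genes were called under every alternative run, limma-voom on recovered reads included, with 1 exception: for the difference of the PB1046 responses, leaving out single libraries gave 0 to 1 genes, and the 1 came without replicate 3 of mdx:Utrn+/- saline. The median difference of the responses over the 9 enzymes was 0.48 with the endothelial score as a term, against 0.10, and the cause was not tested. The other medians moved by less than the spread of the enzyme score within groups (SD 0.38). Their signs were not fixed: without scaling factors the median of the 9 was 0.08 for PB1046 in mdx, -0.12 and -0.02 for genotype under saline and PB1046, and 0.14 for PB1046 over genotypes, while the median over all genes moved to 0.14, -0.20, -0.20 and 0.14. Leaving out single libraries gave medians of the 9 of -0.33 to 0.22 and -0.19 to 0.27 for PB1046 in mdx and mdx:Utrn+/-, -0.04 to 0.41 and -0.02 to 0.50 for genotype under saline and PB1046, -0.21 to 0.36 for the difference of the responses, -0.16 to 0.10 for PB1046 over genotypes and 0.09 to 0.33 for genotype over treatments. Of 63 values per enzyme and comparison, 13 were at least 0.35 in size, and none of these changed sign under any alternative. Of the other 50, 43 changed sign under at least 1. With the replicate block the median of the 9 was -0.11 for PB1046 in mdx and 0 genes were called; same-numbered libraries had correlations of -0.45 to 0.49 in their deviations, 5 of 18 pairs above 0.1, so the numbers were not taken as pairs. The 3 lowest library numbers fell on replicate 1 of every group but mdx saline, which holds none of them. With a term for these, 1 enzyme was higher and 8 lower for PB1046 in mdx (median -0.17). Every enzyme had at least 1921 reads in each library. The libraries with 22546261 to 25458207 reads had enzyme scores of 0.25 to 0.55, and the others had -0.60 to 0.27. The part of depth in these values was not tested.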
